A study of Mus musculus with 88 samples.

Results

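The cytosolic nucleic acid sensors described here were 5 genes, Ifih1, Dhx58, Mavs, Zbp1 and Sting1, out of 17097 genes with a probe set of their own on the array. They were picked by symbol. Each was represented by the probe set that names it alone and had the highest mean over all 88 arrays, and the choice used no difference between groups.

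Cells watch their cytosol for misplaced or foreign nucleic acids. MDA5, the product of Ifih1, binds long double-stranded RNA and signals through MAVS, an adaptor on the mitochondrial membrane, to the kinases and transcription factors that switch on type I interferon. LGP2, the product of Dhx58, lacks the signalling domain of MDA5 and tunes its response. ZBP1 binds Z-form nucleic acids and can start necroptosis through RIPK3, and STING is the adaptor through which the DNA sensor cGAS acts. Ifih1, Dhx58 and Zbp1 are themselves induced by interferon, a cytokine long linked to lupus.

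Whole blood came from female SNF1 mice, F1 offspring of SWR and NZB parents, which develop lupus nephritis with age. Pristane, a hydrocarbon oil that speeds up this disease, was injected into the peritoneum of 9-week-old mice, and blood was taken at week 2, 4, 8, 12 or 14 thereafter (8 mice each). Age-matched SNF1 mice without injection were the controls at the same 5 weeks (8 mice each). The last group held 8 mice that had never been injected and had spontaneous disease at 36 weeks of age, picked for heavy proteinuria. Its week is an age and not a time since injection, and as no mice of that age without disease were measured, age and disease cannot be told apart in it. All groups shared the strain and its inherited disease. No vehicle injection is stated for the mice without pristane, and the labels do not say whether blood was drawn again from the same mice at several weeks.

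Values are log2 signals after robust multi-array averaging (RMA), and a difference of 1 is a 2-fold change. Each comparison was tested with limma over all probe sets, and a gene was called at a Benjamini-Hochberg adjusted p under 0.05. The array medians lay between 3.78 and 4.01. A pair of arrays stood apart from their groups in interferon-induced genes. In pristane week 4 replicate 1 the mean of 9 interferon-induced reference genes was 6.32, against 7.37 to 7.90 in the 7 other arrays of its group, and its mean of 10 neutrophil genes was 7.76, against 9.17 to 10.03 in the others. In untreated week 8 replicate 3 the interferon-induced mean was 7.59, against 6.19 to 6.76 in the 7 others of its group, while its neutrophil mean of 8.22 lay within the 7.24 to 8.67 of the others. The first array thus had the levels of the other treatment in both lists, as untreated mice of week 4 spanned 5.82 to 6.65 in the interferon-induced mean and 7.06 to 8.26 in the neutrophil mean. The second did so in the interferon-induced mean alone, for which pristane-treated mice of week 8 spanned 7.42 to 8.09. Both arrays kept their labels here. Ifih1, Dhx58 and Zbp1 at weeks 4 and 8 are therefore given with and without these arrays. In spontaneous disease replicate 5 the interferon-induced mean was 7.62, against 6.24 to 7.09 in the 7 others of its group. Pristane-treated mice of week 14 spanned 7.27 to 7.75 in that mean. Replicate 5 also held the highest Ifih1, Dhx58 and Zbp1 values among mice with spontaneous disease.

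Ifih1 and Dhx58, the 2 RNA-binding helicases of the set, were higher in pristane-treated than in untreated blood at all 5 weeks, by 2.45 to 3.93-fold for Ifih1 and 1.82 to 3.54-fold for Dhx58. Zbp1 was higher at weeks 2, 4, 12 and 14. In this fit Mavs was called at week 14 only, and Sting1 at no week. The number of sensors called higher was 3 of 5 at week 2 (2.29% of all genes were called higher there), 3 at week 4 (2.18%), 2 at week 8 (1.85%), 3 at week 12 (2.7%) and 4 at week 14 (12.7%). No sensor was called lower, and the counts of 3 at week 4 and 2 at week 8 were the same without the arrays that stood apart. In whole blood, fewer cells of a type and less RNA per cell cannot be told apart, and neither can their opposites.

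**Figure D1:**
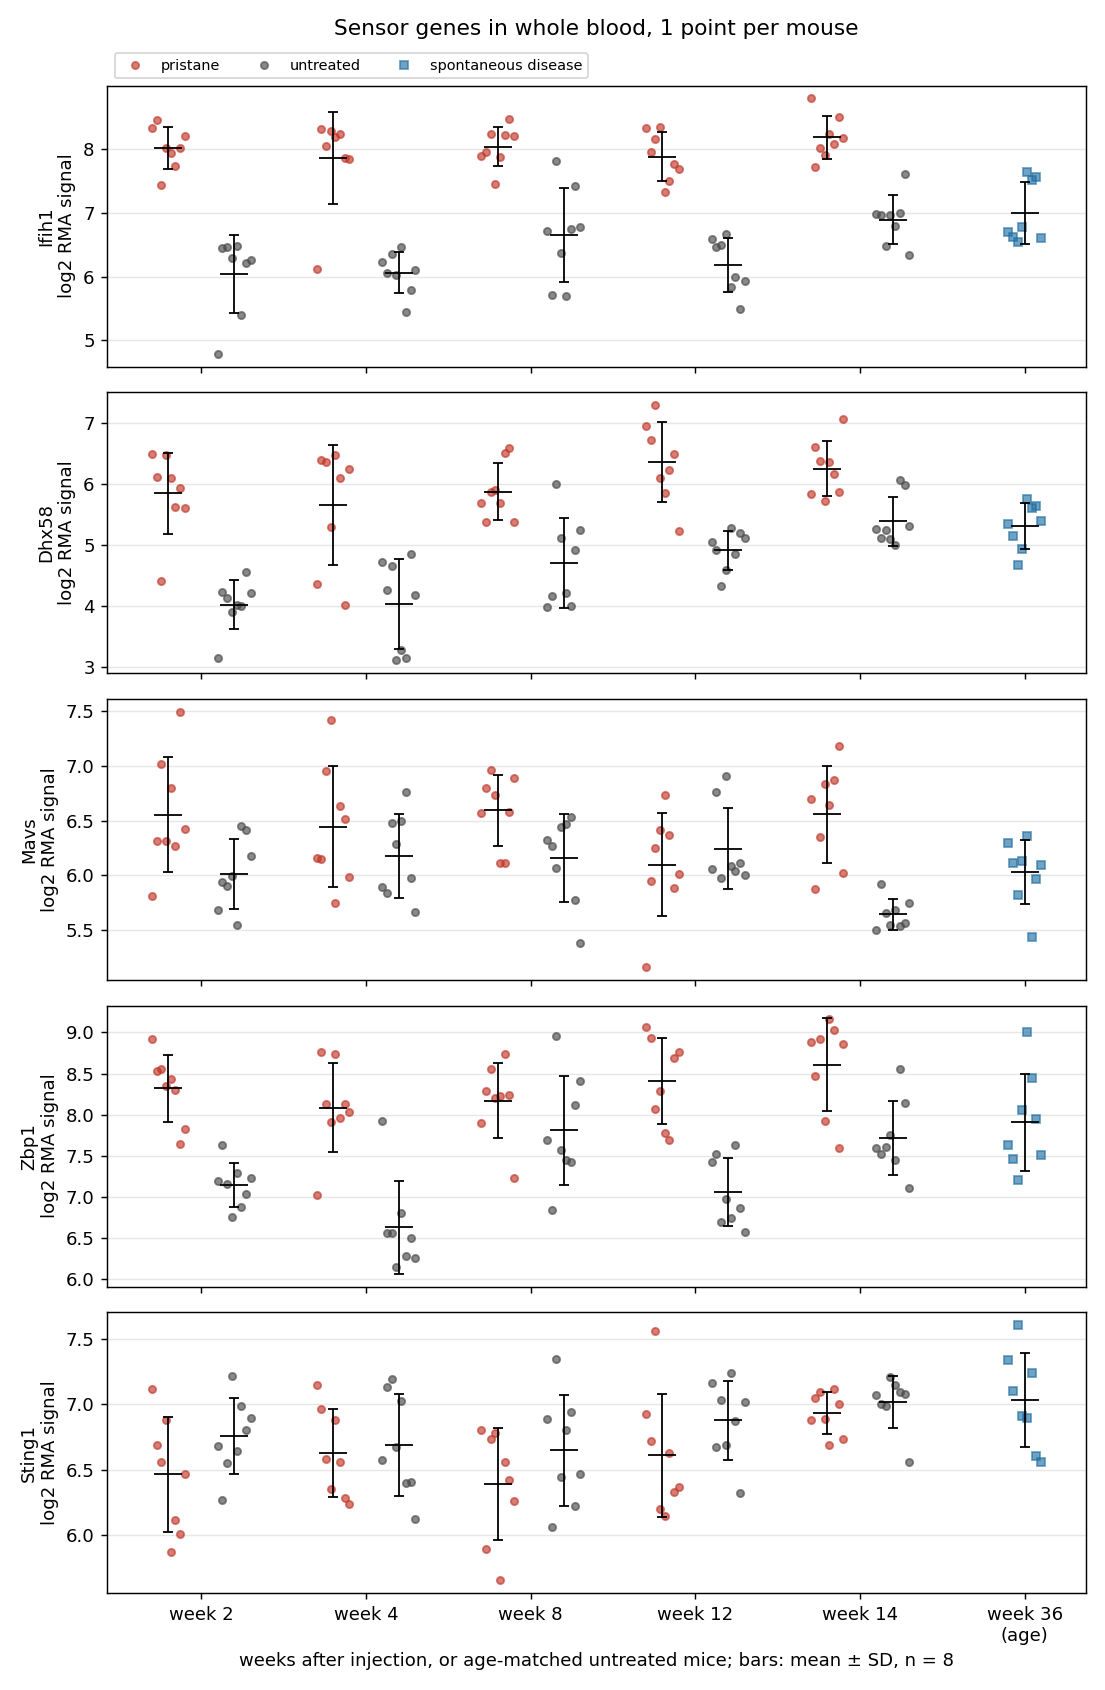
Log2 RMA signal (vertical axes, one panel per gene with its own scale) in every mouse for pristane-treated (red), untreated (grey) and spontaneously diseased mice (blue squares) at each week, with mean and SD over 8 mice. Ifih1 showed no overlap between pristane-treated and untreated mice at weeks 2, 12 and 14, and Sting1 overlapped at every week.

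Ifih1 at week 2 ranged from 7.44 to 8.46 in pristane-treated mice (median 8.02) and from 4.79 to 6.47 in untreated mice (median 6.28). At week 12 its range was 7.32 to 8.35 in pristane-treated mice (median 7.86) and 5.49 to 6.67 in untreated mice (median 6.23). At week 14 it was 7.73 to 8.79 in pristane-treated mice (median 8.13) and 6.34 to 7.61 in untreated mice (median 6.97). At each of these 3 weeks every pristane-treated mouse was above every untreated mouse, which held for 0.69%, 0.801% and 0.883% of all genes at weeks 2, 12 and 14. The differences were 1.98 at week 2 (95% confidence interval 1.502 to 2.45, adjusted p = 3.76e-09 by limma), 1.70 at week 12 (1.23 to 2.17, adjusted p = 5.56e-07) and 1.29 at week 14 (0.82 to 1.76, adjusted p = 2.67e-05).

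At weeks 4 and 8 the Ifih1 ranges overlapped through the 2 arrays that stood apart. Week 4 values ran from 6.12 to 8.32 in pristane-treated mice (median 8.12) and from 5.45 to 6.47 in untreated mice (median 6.08), and the lowest treated value was that of replicate 1, with the next at 7.84. The difference was 1.80 (adjusted p = 6.68e-08 by limma) and 2.05 without that array (adjusted p = 6.34e-11). Week 8 values ran from 7.46 to 8.47 in pristane-treated mice (median 8.08) and from 5.69 to 7.81 in untreated mice (median 6.73), and the highest untreated value was that of replicate 3. The difference was 1.39 (adjusted p = 4.31e-05 by limma) and 1.55 without it.

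Dhx58 varied more between mice. At week 2 it ranged from 4.41 to 6.49 in pristane-treated mice (median 6.02) and from 3.15 to 4.55 in untreated mice (median 4.08), and 7 of 8 treated mice were above every untreated one. At week 4 the range was 4.02 to 6.47 in pristane-treated mice (median 6.17) and 3.11 to 4.85 in untreated mice (median 4.22). Treated replicates 1 and 7 fell among the untreated mice there. The differences were 1.82 at week 2 (1.25 to 2.40, adjusted p = 7.84e-06 by limma) and 1.63 at week 4 (1.05 to 2.21, adjusted p = 8.71e-05). Without treated replicate 1 the week 4 difference was 1.81.

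The Dhx58 groups overlapped at the later weeks as well. At week 8 it ranged from 5.37 to 6.60 in pristane-treated mice (median 5.79) and from 3.98 to 6.003 in untreated mice (median 4.57), a difference of 1.17 (adjusted p = 0.0104 by limma) that was 1.36 without untreated replicate 3. At week 12 it ranged from 5.23 to 7.30 in pristane-treated mice (median 6.36) and from 4.33 to 5.29 in untreated mice (median 4.98), a difference of 1.45 (adjusted p = 0.000781). At week 14 it ranged from 5.72 to 7.07 in pristane-treated mice (median 6.27) and from 5.00 to 6.06 in untreated mice (median 5.26), with 5 of 8 treated mice above every untreated one. The week 14 difference was 0.87 (0.29 to 1.44, adjusted p = 0.0239 by limma), and it was not called without pristane week 14 replicate 8 (0.75, adjusted p = 0.0656).

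These Dhx58 values came from 1 of its 3 probe sets. The main one had a mean of 5.31 over all arrays. The other pair averaged 2.31 and 1.41, levels that 19.4% and 1.11% of all probe sets lay below, and in them no pristane difference was called at any week (-0.09 to 0.44 in the second probe set, -0.02 to 0.23 in the third). Zbp1 had a second probe set with a mean of 6.04 that was called at weeks 2, 4 and 12, with differences of 1.52, 1.27 and 1.61, and not at week 14 (0.23, adjusted p = 0.617 by limma).

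**Figure D2:**
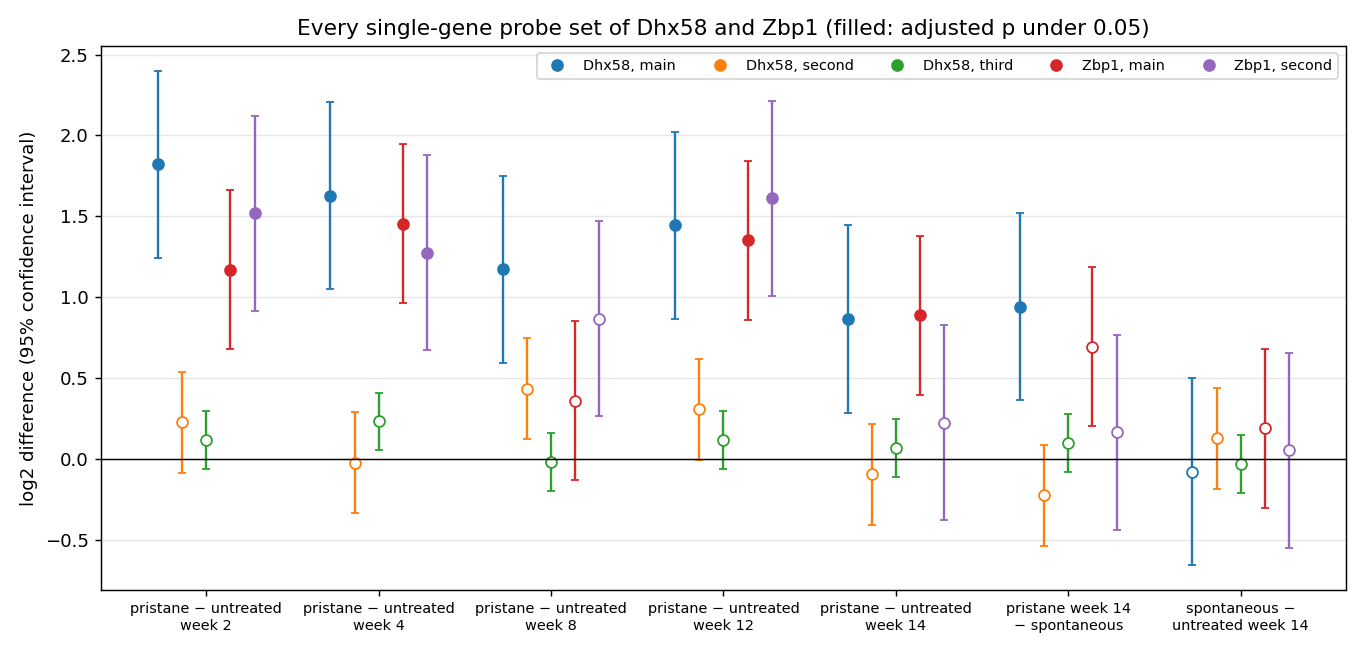
Log2 differences with 95% confidence intervals (vertical axis) for each single-gene probe set of Dhx58 and Zbp1 in 7 comparisons (horizontal axis), filled where the adjusted p was under 0.05. The second and the third Dhx58 probe sets were open in every comparison (-0.22 to 0.44), and the Zbp1 probe sets parted at week 14 (0.89 in the main one, 0.23 in the second).

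Mavs, the adaptor on which MDA5 depends, was higher in pristane-treated mice at week 14. It ranged there from 5.88 to 7.18 in pristane-treated mice (median 6.67) and from 5.50 to 5.92 in untreated mice (median 5.61), and 7 of 8 treated mice were above every untreated one. The difference was 0.91 (0.52 to 1.31, adjusted p = 0.000331 by limma), a 1.88-fold change. At week 12 the range was 5.16 to 6.73 in pristane-treated mice (median 6.13) and 5.98 to 6.91 in untreated mice (median 6.07), and the groups overlapped widely (difference -0.14, adjusted p = 0.853). Its differences at weeks 2, 4 and 8 were 0.54, 0.27 and 0.44, with adjusted p of 0.119, 0.645 and 0.325 by limma, and 3, 2 and 6 of 8 treated mice were above all untreated ones. The week 2 difference was called with array spread (the interquartile range) as a covariate (0.56, adjusted p = 0.0476 by limma) and against all 40 untreated arrays (0.51, adjusted p = 0.036), and the week 8 difference against all 40 (0.55, adjusted p = 0.0103).

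The week 14 call for Mavs came with a low untreated group. Untreated means were 6.01, 6.17, 6.16 and 6.24 at weeks 2, 4, 8 and 12 and 5.64 ± 0.14 (SD, n = 8) at week 14, and pristane-treated means were 6.56 at both week 2 and week 14 and 6.10 at week 12. All 8 untreated mice of week 14 were below all 8 of week 12, which held for 0.135% of genes. The difference of -0.60 was not called (interval -0.99 to -0.20, adjusted p = 0.145 by limma), and set against the untreated mice of week 12 the treated mice of week 14 differed by 0.32 (adjusted p = 0.372). The mean of 6 erythroid marker genes moved the same way in untreated mice, at 11.20 at week 14 and 11.66 at week 12. In pristane-treated mice it did not, at 11.69 at week 14 and 11.80 at week 12, where Mavs was 6.56 and 6.10. Deviations of Mavs from its group means had r = 0.56 with those of the erythroid mean over the 88 arrays. Both values of 1 array share its distribution of signals and its blood composition. The part of erythroid cells in the Mavs values was not tested.

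Zbp1 at week 2 ranged from 7.64 to 8.91 in pristane-treated mice (median 8.39) and from 6.76 to 7.64 in untreated mice (median 7.18). At week 12 the range was 7.70 to 9.07 in pristane-treated mice (median 8.49) and 6.58 to 7.64 in untreated mice (median 6.92). The groups did not overlap at these weeks, although at week 2 the lowest treated and the highest untreated value differed by under 0.01. Every treated mouse was above every untreated one for 0.69% of all genes at week 2 and 0.801% at week 12. The differences were 1.17 at week 2 (0.68 to 1.66, adjusted p = 0.00136 by limma) and 1.35 at week 12 (0.86 to 1.84, adjusted p = 0.000169). At week 4 Zbp1 ranged from 7.02 to 8.76 in pristane-treated mice (median 8.08) and from 6.15 to 7.92 in untreated mice (median 6.53), a difference of 1.46 (adjusted p = 3.53e-05) and of 1.61 without treated replicate 1. Untreated replicate 1, at 7.92, lay above treated replicates 1 (7.02) and 4 (7.91), and the other 7 untreated mice, up to 6.80, lay below all treated ones.

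At week 8 Zbp1 was not called. It ranged from 7.24 to 8.74 in pristane-treated mice (median 8.23) and from 6.85 to 8.96 in untreated mice (median 7.63), so that the untreated group held both the lowest and the highest value. The difference was 0.36 (-0.13 to 0.85, adjusted p = 0.631 by limma), and 0.53 without untreated replicate 3 (adjusted p = 0.387). The untreated mean of 7.81 at week 8 was 7.65 without that array, and against all 40 untreated arrays together the difference was 0.90 (adjusted p = 0.000463). At week 14 Zbp1 ranged from 7.60 to 9.17 in pristane-treated mice (median 8.87) and from 7.11 to 8.56 in untreated mice (median 7.61), a difference of 0.89 (0.40 to 1.38, adjusted p = 0.00579).

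Sting1 showed no called difference at any week. Its lowest, median and highest values were 5.87, 6.51 and 7.12 in pristane-treated mice of week 2 and 6.27, 6.74 and 7.22 in untreated mice. At week 14 they were 6.69, 6.95 and 7.12 in pristane-treated mice and 6.56, 7.08 and 7.21 in untreated mice. The 5 weekly differences all lay between -0.29 and -0.07, with 95% confidence intervals from -0.64 at the lowest to 0.29 at the highest, and adjusted p from 0.419 to 0.941 by limma. Against all 40 untreated arrays, the week 8 difference was -0.41 (adjusted p = 0.0388).

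**Figure D3:**
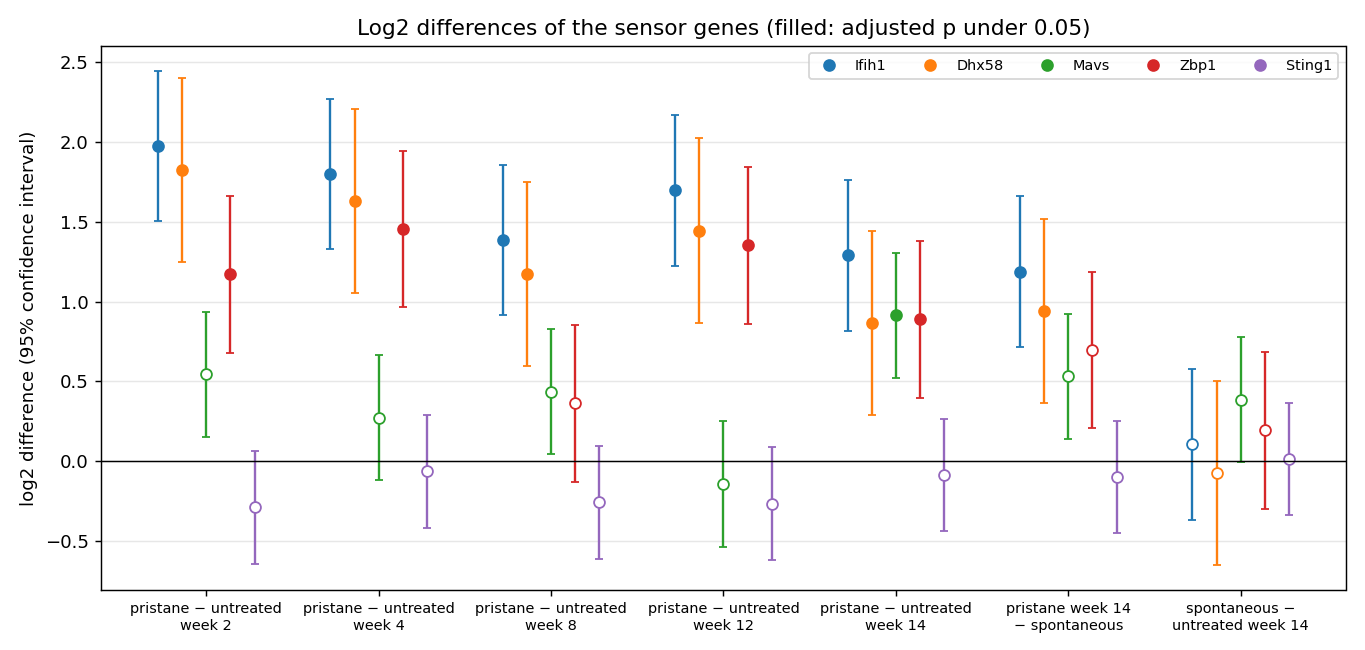
Log2 differences of the 5 sensors with 95% confidence intervals (vertical axis) in the 5 weekly pristane comparisons and the 2 comparisons with spontaneous disease (horizontal axis), filled where the adjusted p was under 0.05. Ifih1 was filled at all 5 weeks and against spontaneous disease, and Mavs at week 14 only.

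A call at one week and none at another does not show that the weeks differ, so the weekly differences were also compared with each other. In the moderated F test over the 5 weeks, 0 of 5 sensors were called by limma (3.16% of all genes were, and 2 sensors, Mavs and Zbp1, had an unadjusted p under 0.05), with adjusted p of 0.569 for Ifih1, 0.5 for Dhx58, 0.111 for Mavs, 0.185 for Zbp1 and 0.929 for Sting1. In a single contrast chosen after seeing the data, the effect on Mavs was larger at week 14 than at week 12 by 1.06 (0.50 to 1.61, adjusted p = 0.0241 by limma), as 2.15% of all genes differed between these weeks. Within pristane-treated mice alone, 0 of 5 sensors were called between weeks 12 and 2 (1.23% of genes) or between weeks 14 and 12 (3.52% of genes) by limma, and 1, Mavs, had an unadjusted p under 0.05 in each. The pristane effects of the helicases at week 14 were below those of week 2 by 0.68 for Ifih1 (interval of the difference -1.35 to -0.02, adjusted p = 0.208 by limma) and 0.96 for Dhx58 (-1.77 to -0.14, adjusted p = 0.143).

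The untreated mice did not stay level. Over the 5 untreated groups, Ifih1, Dhx58 and Zbp1 were called in the moderated F test (3 of 5 sensors, against 11.8% of all genes), with adjusted p of 0.0190, 0.00155 and 0.00208. Dhx58 had untreated means of 4.03, 4.03, 4.71, 4.92 and 5.39 at weeks 2, 4, 8, 12 and 14. Ifih1 had 6.04, 6.06, 6.65, 6.18 and 6.89, with high points at weeks 8 and 14. Zbp1 had 7.15, 6.63, 7.81, 7.06 and 7.72. Without untreated week 8 replicate 3 the week 8 means were 6.49 for Ifih1, 4.52 for Dhx58 and 7.65 for Zbp1, and the F test again called 3 sensors. Mavs and Sting1 were not called (adjusted p = 0.120 and 0.413). When the spread of each array, its interquartile range, was added as a covariate, Zbp1 remained called (adjusted p = 0.00951 by limma) and Ifih1 and Dhx58 did not (0.214 and 0.0957). The untreated arrays of week 14 had the widest distributions (median interquartile range 3.57, against 3.14 to 3.26 in the 4 earlier untreated groups).

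Pairs of untreated weeks gave fewer calls. Between weeks 12 and 2, 0 of 5 sensors were called (0.205% of all genes) and 1 had an unadjusted p under 0.05, with Dhx58 at a difference of 0.89 (0.31 to 1.47, adjusted p = 0.143 by limma). Between weeks 14 and 12 again 0 of 5 were called (0.0702% of genes) and 3 had an unadjusted p under 0.05, with differences of 0.71 for Ifih1 (adjusted p = 0.151) and 0.66 for Zbp1 (adjusted p = 0.190).

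Between mice with spontaneous disease and untreated mice of week 14, no sensor was called. Ifih1 ranged from 6.54 to 7.64 with spontaneous disease (median 6.74) and from 6.34 to 7.61 in untreated mice of week 14 (median 6.97). Zbp1 ranged from 7.21 to 9.003 with spontaneous disease (median 7.79), and from 7.11 to 8.56 in untreated mice of week 14 (median 7.61). For both, 1 of 8 diseased mice was above every untreated one and none below. Mavs ranged from 5.43 to 6.36 with spontaneous disease (median 6.10) and from 5.50 to 5.92 in untreated mice (median 5.61), with 6 of 8 diseased mice above every untreated one and 1 below. No sensor was called by limma, none had an unadjusted p under 0.05, and 0% of all genes were called. The differences were 0.10 for Ifih1 (-0.37 to 0.58), -0.08 for Dhx58 (-0.65 to 0.50), 0.38 for Mavs (-0.01 to 0.78), 0.19 for Zbp1 (-0.30 to 0.68) and 0.01 for Sting1 (-0.34 to 0.37), each with an adjusted p of 1 by limma.

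Set directly against spontaneous disease, pristane-treated mice of week 14 had higher Ifih1 and Dhx58 (2 of 5 sensors, against 5.59% of genes called higher). This comparison shares its pristane-treated arrays with that against untreated mice. Ifih1 was 7.73 to 8.79 in pristane-treated mice and 6.54 to 7.64 with spontaneous disease, without overlap (0.374% of genes were so arranged), and the difference was 1.19 (0.71 to 1.66, adjusted p = 0.000325 by limma). Dhx58 was 5.72 to 7.07 in pristane-treated mice and 4.67 to 5.76 with spontaneous disease, with 7 of 8 treated mice above every diseased one, and the difference was 0.94 (0.36 to 1.52, adjusted p = 0.0247). The Dhx58 call was lost without spontaneous disease replicate 3 (adjusted p = 0.0634) or 4 (0.0528), or without pristane week 14 replicate 8 (0.0682). Zbp1 differed by 0.70 (adjusted p = 0.0568) and Mavs by 0.53 (adjusted p = 0.0712), and Sting1 by -0.10 (adjusted p = 0.769). Zbp1 was called under 5 other settings of the whole fit, with differences of 0.70 to 0.95 and adjusted p from 0.00164 (interquartile range as covariate) to 0.0385 (probe sets above the median signal), and also without spontaneous disease replicate 5 or 6 or pristane week 14 replicate 4 or 7 (0.0178 to 0.0475). Without spontaneous disease replicate 5, whose interferon-induced mean was high, Zbp1 differed by 0.85 (adjusted p = 0.0178 by limma). The second Zbp1 probe set had means of 6.56 in pristane-treated mice of week 14 and 6.39 with spontaneous disease. Mavs was called without pristane week 14 replicate 2 (0.63, adjusted p = 0.0281) or 8 (0.61, adjusted p = 0.0448).

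Ordered by group mean, Ifih1 and Zbp1 split into 5 pristane-treated groups above and 6 others below. For Ifih1 the 5 treated means lay between 7.86 and 8.18 and neighbours among them differed by less than their SD. The step to the next group, spontaneous disease at 6.996 ± 0.487 (SD, n = 8), was 0.87 and exceeded the larger SD of the 2 groups, the only one of 10 steps to do so. For Zbp1 the treated means lay between 8.09 and 8.61, the step to spontaneous disease (7.91) was 0.18, and the only step above the SD was that between untreated weeks 14 and 2 (0.57). Dhx58 also had its 5 treated groups on top, from 5.66 to 6.36, but the step down to untreated mice of week 14 (5.39) was 0.27 and within the SD, and its only step above the SD was that between spontaneous disease and untreated week 12 (0.40). Mavs had its highest mean in pristane-treated mice of week 8 (6.59) and its lowest in untreated mice of week 14 (5.64), and this lowest step, of 0.37, was the only one above the SD. Sting1 had a span of 0.64 over the 11 groups, with spontaneous disease highest (7.03) and pristane-treated mice of week 8 lowest (6.39), and none of its 10 steps exceeded the SD.

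Ifih1, Dhx58 and Zbp1 also varied together among mice of the same group, with weaker or negative values for Mavs and Sting1. Over 88 arrays, deviations from the group means of Ifih1 and Dhx58 had r = 0.46, those of Ifih1 and Zbp1 r = 0.51, and those of Dhx58 and Zbp1 r = 0.47. Mavs had r = -0.06 with Ifih1, -0.35 with Dhx58 and -0.36 with Zbp1, and Sting1 had r between -0.14 and 0.16 with the other 4. These are descriptions, and all genes of 1 array share its scanning, distribution width and blood composition, which differ between arrays. The deviations of the interquartile range had r = 0.26, 0.37 and 0.52 with those of Ifih1, Dhx58 and Zbp1, 0.54 with those of Sting1 and -0.38 with those of Mavs.

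Genes whose pattern over all 88 arrays was most like that of Ifih1 were Oas1g (r = 0.92), Rtp4 (0.91) and Oasl2 (0.91), and within groups their r was 0.63, 0.61 and 0.59. For Dhx58 they were Ifitm3 (0.83), Casp4 (0.81) and Oas1g (0.81). For Zbp1 they were Mx1 (0.84), Ly6c1 (0.84) and Rtp4 (0.82), with 0.66, 0.67 and 0.75 within groups. Mx1 and Oas1g are antiviral genes induced by interferon. Mavs was nearest to Mff (0.78), a mitochondrial fission factor, Stradb (0.76) and Fam126a (0.74), and Sting1 to Clcn4 (0.71), Prpsap1 (0.70) and Capn15 (0.69).

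Promoters are printed for Ifih1, called at every week, for Mavs, called at 1 week, and for Ifit1, an RNA-binding effector induced by the pathway. Each stretch is the 120 bases before the start site from RefSeq on GRCm38.p6, 5′ to 3′ on the gene's strand, at chr2:62646256-62646375 (minus strand) for Ifih1, chr2:131233943-131234062 (plus strand) for Mavs and chr19:34640769-34640888 (plus strand) for Ifit1. Capitals mark matches to GAAANNGAAA on either strand, letters of the interferon-stimulated response element (ISRE), to which interferon-activated factors bind.
Ifih1: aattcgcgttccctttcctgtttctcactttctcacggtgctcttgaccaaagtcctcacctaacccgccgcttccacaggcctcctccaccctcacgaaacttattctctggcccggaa
Mavs: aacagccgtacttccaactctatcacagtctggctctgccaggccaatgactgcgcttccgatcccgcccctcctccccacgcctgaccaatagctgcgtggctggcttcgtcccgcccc
Ifit1: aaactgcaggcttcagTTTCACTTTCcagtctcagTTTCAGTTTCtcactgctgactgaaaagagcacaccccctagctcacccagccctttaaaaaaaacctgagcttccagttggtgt

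The Ifit1 stretch held 2 matches, on the opposite strand, which began 104 and 85 bases before the start site. No match lay in the 250 bases before the start of Ifih1 or Mavs, nor of Irf7 and Oasl2, pathway genes called at every week like Ifit1, where TTCNNNGAA, the gamma-activated site, had none either, and no match says only that these letters are not in this window. Of 32851 promoters in the table, 2.98% held the ISRE letters and 7.02% the gamma-activated site in those 250 bases. Of the 5 sensors, only Ifih1 and Mavs had a promoter in the table. Among the 8 measured RNA sensing effectors, 7 had a promoter in the table, and 3 of these (Oas3, Ifit1 and Ifit3) held the ISRE letters. So did 3 of 15 other sensors with a promoter (Ifi203, Ifi205 and Ddx60) and 1 of 14 inhibitors and nucleases (Trim30a). Among adaptors and signal transducers it was 1 of 19 (Tomm70a), and among necroptosis partners 0 of 4. The Mavs window was 65.2% G and C, against a median of 52.4% over all promoters.

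Beyond the 5 sensors, 83 further genes of the pathway were listed by role, of which 70 were measured. Of these, 14, 11, 11, 13 and 13 were called higher in pristane-treated blood at weeks 2, 4, 8, 12 and 14. Over all genes, the shares called higher were 2.29%, 2.18%, 1.85%, 2.7% and 12.7%. Called lower were 0, 1, 1, 0 and 8 of the 70, against 1.29%, 0.801%, 0.778%, 1.06% and 9.72% of all genes. The median difference of the 70 was 0.10 at week 2 and 0.06 at week 14, against -0.02 and 0.12 over all genes.

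Among 17 other cytosolic sensors measured, 2, 1, 1, 4 and 3 were called higher at weeks 2, 4, 8, 12 and 14, and 4 lower at week 14. Of all genes, 2.29%, 2.18%, 1.85%, 2.7% and 12.7% were called higher at the 5 weeks, and 9.72% lower at week 14. Ddx60, a helicase linked to RNA sensing, was called at all 5 weeks, with differences of 1.82, 1.77, 2.15, 1.72 and 0.92. Ifi204 of the interferon-inducible p200 family was called at weeks 2, 12 and 14 (1.42, 1.24 and 0.93), and its relative Ifi205 at week 14 (1.01). The moderated F test of a difference between weeks called Ifi205 (adjusted p = 0.0028 by limma) and not Ifi204 (0.365). Dhx9, a helicase that unwinds RNA and DNA, was among the 4 called lower at week 14, with a difference of -0.73, as was Polr3f of RNA polymerase III, at -1.02. Cgas, the DNA sensor upstream of STING, was called at no week, with differences of 0.28, 0.28, -0.00, 0.01 and -0.06.

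Of 21 adaptors and signal transducers measured, 1 was called higher at every week, against 2.29%, 2.18%, 1.85%, 2.7% and 12.7% of all genes. It was Irf7, the transcription factor that amplifies the interferon response, with means of 10.51 in pristane-treated and 6.77 in untreated mice at week 2. Its differences were 3.74, 2.88, 3.08, 3.06 and 2.95. Irf3, its constitutive relative, had differences of -0.44, -0.47, -0.44, -0.29 and -0.44, and Tbk1, the kinase that phosphorylates both, -0.04, 0.26, -0.06, -0.13 and 0.16, and neither was called at any week. Called lower were 0, 1, 1, 0 and 2 of the 21, against 1.29%, 0.801%, 0.778%, 1.06% and 9.72% of all genes. The ubiquitin ligase Traf6 was called lower at week 4 (-0.87) and the kinase Ikbkb at week 8 (-0.68). In the moderated F test of a difference between weeks neither was called (adjusted p = 0.471 and 0.549 by limma).

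Of 20 inhibitors and nucleases, 4, 2, 2, 2 and 2 were called higher at the 5 weeks. The shares of all genes called higher were 2.29%, 2.18%, 1.85%, 2.7% and 12.7%. At week 14, 2 of the 20 were called lower, against 9.72% of all genes. Their median difference there was -0.10, against 0.12 over all genes. Usp18, which dampens signalling at the interferon receptor, rose at every week (3.87, 2.91, 2.79, 2.82 and 2.00). Trim30a rose at weeks 2, 4, 8 and 12 (1.3, 1.64, 1.34 and 1.37) and was at 0.39 at week 14, where it was not called. Nlrx1, a mitochondrial protein reported to restrain MAVS, had 0.33, 0.31, 0.20 and 0.51 at weeks 2, 4, 8 and 12 and rose at week 14 by 1.77 (mean 8.61 with pristane and 6.84 without, adjusted p = 8.3e-10 by limma). Like Mavs, it was called at week 14 only, and among 12.7% of all genes called higher there. In the moderated F test of a difference between weeks, Nlrx1 and Trim30a were called (adjusted p = 0.000805 and 0.0308 by limma). Mavs was not called in that test (adjusted p = 0.111).

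None of the 4 measured partners of ZBP1 in necroptosis was called by limma at any week, and 1 each had an unadjusted p under 0.05 at week 4 (Mlkl) and week 14 (Ripk3). Ripk3, its kinase, had differences of -0.08, 0.19, 0.11, 0.00 and 0.41, and Mlkl, the executioner of necroptosis, 0.30, 0.47, -0.28, 0.44 and 0.31. Cflar, an inhibitor of caspase 8, had -0.12, -0.26, 0.02, 0.26 and -0.27. The RNA sensing effectors behaved otherwise, with 7, 7, 7, 6 and 7 of 8 called higher. Over all genes, the shares called higher were 2.29%, 2.18%, 1.85%, 2.7% and 12.7%. The median difference of the effectors was 2.77 at week 2 and 1.88 at week 14. Oasl2 had 4.07, 3.52, 2.93, 3.37 and 2.75, Ifit1 had 3.75, 3.20, 2.86, 3.11 and 2.54, and Oas2, which makes a second messenger on binding double-stranded RNA, had 3.28, 2.90, 2.28, 3.08 and 3.01.

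Against spontaneous disease, 11 of the 70 genes were called higher and 6 lower in pristane-treated mice of week 14. Over all genes, 5.59% were called higher and 4.42% lower. Irf7 differed by 2.38, Oas2 by 2.603, Usp18 by 1.74 and Nlrx1 by 1.43, and Ikbkg, the regulatory subunit of the IKK complex, by -1.04. Between spontaneous disease and untreated mice of week 14, 0 of the 70 were called by limma and 5 had an unadjusted p under 0.05.

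**Figure D4:**
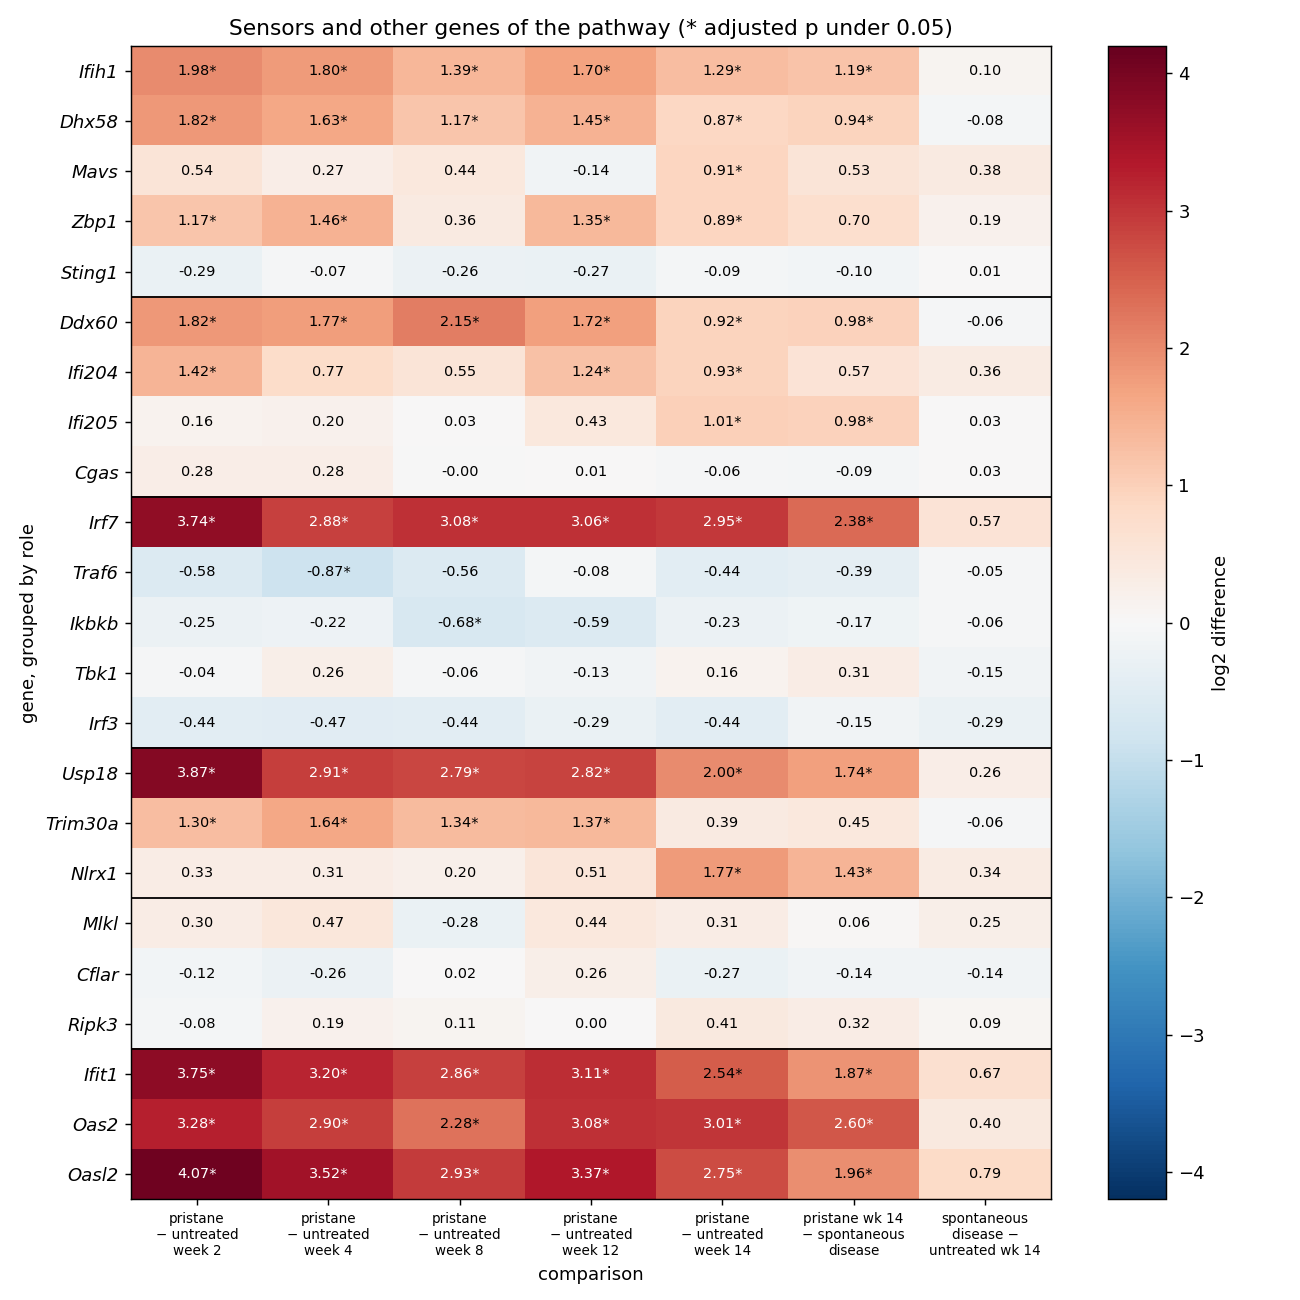
Log2 differences (colour and printed value, * adjusted p under 0.05) of the 5 sensors and 18 other genes of the pathway (rows, grouped as sensors described here, other sensors, adaptors, inhibitors, necroptosis partners and effectors) in 7 comparisons (columns). Irf7, Usp18 and the effectors Ifit1, Oas2 and Oasl2 were starred in each pristane comparison, while Cgas, Tbk1, Irf3 and the necroptosis partners had no star.

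Blood cell markers moved along with the pristane comparisons. Over all genes, 2.29%, 2.18%, 1.85%, 2.7% and 12.7% were called higher at weeks 2, 4, 8, 12 and 14. Called lower were 1.29%, 0.801%, 0.778%, 1.06% and 9.72% of all genes. Of 10 neutrophil genes, 9, 10, 9, 10 and 8 were called higher at weeks 2, 4, 8, 12 and 14, and their mean signal ranged from 8.35 to 9.16 in pristane-treated and from 6.90 to 8.31 in untreated mice at week 2, and from 8.32 to 9.72 in pristane-treated and from 7.37 to 8.22 in untreated mice at week 14. The 9 interferon-induced reference genes had 6, 6, 5, 6 and 5 called higher, and their mean at week 2 was 7.69 with pristane and 6.25 without, with no overlap. All 7 platelet genes were called higher at week 14, with a mean of 10.91 in pristane-treated and 9.91 in untreated mice. Some genes of the lymphocyte and plasmacytoid dendritic cell lists were called lower. The latter list was measured by Ccr9, Tcf4, Spib and Irf8 alone, as Siglech, Bst2 and Runx2 had no single-gene probe set. Whether its mean reflects those cells or B cells was not tested. Of 8 B cell genes, 1, 3, 0, 2 and 4 were called lower at the 5 weeks, of 8 T cell genes 0, 0, 0, 1 and 3, of 7 NK cell genes 3, 1, 3, 0 and 3, and of 4 plasmacytoid dendritic cell genes 1, 1, 2, 1 and 2. In the NK cell list, 1 gene was called higher at week 14. Of 8 monocyte genes, 1, 2, 1, 3 and 2 were called higher at the 5 weeks and 1, 0, 1, 1 and 1 lower. At week 14 the B cell mean ranged from 7.63 to 8.996 in pristane-treated and from 8.57 to 9.10 in untreated mice, and the plasmacytoid dendritic cell mean from 6.19 to 7.24 in pristane-treated and from 6.86 to 7.87 in untreated mice. Within groups the neutrophil mean had r = 0.46 with Ifih1, 0.42 with Dhx58 and 0.51 with Zbp1. The monocyte mean had 0.35, 0.40 and 0.49 with them, and the interferon-induced mean 0.62, 0.60 and 0.75. Sting1 had r = 0.50 with the T cell mean, 0.46 with the B cell mean, 0.44 with the plasmacytoid dendritic cell mean and -0.43 with the erythroid mean. The part of these cells in the sensors' differences was not tested.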

How the data were processed

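The authors extracted RNA from whole blood with Trizol, amplified and labelled it with a NuGEN Ovation kit and hybridised it to Affymetrix HT MG-430 PM arrays, 1 per blood sample. The deposited values are log2 signals, summarised by the authors per probe set with RMA in Partek, in a single table. Arrays keep no count of molecules, so precision rests on the mice measured, 8 per group. Each p-value set a difference against 1 spread between mice, pooled over all 11 groups and moderated by limma over all probe sets. Leaving out 104 control probe sets of 45141 gave 45037, and 28898 of these name 1 gene.

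All 88 arrays entered 1 limma fit (version 3.58.1, R 4.3.3) with 11 group means and 77 residual degrees of freedom. Moderated t and F tests were adjusted by Benjamini-Hochberg over 45037 probe sets, with no fold threshold. The fit was tested on simulated data. Shares of all genes use 1 probe set per gene.

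The 5 sensors, the gene lists and the tests were chosen with earlier results of these data known. Of each pathway list, the 3 genes with the largest F over the weekly effects were to be named. Rigi, Cgas, Aim2, Tbk1, Irf3 and Ripk3 were to be named whatever they showed. Dhx9, Polr3f and Ikbkg were named after their values were seen. Listed genes with no single-gene probe set in the table, Rigi and Aim2 among them, were not analysed here. Likeness left out clones and predicted genes. Replicate numbers were not taken as pairs, since in no comparison did the deviations of all 8 same-numbered pairs correlate above 0.1 (at most 7 of 8, for pristane week 14 against spontaneous disease). Alternatives were other scalings, covariates, weights, filters, controls, probe sets and leaving out arrays.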

Additional observations from a re-analysis of the deposited data

Results flagged for a closer look

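In 5 of 55 groups of 8 mice (5 sensors, 11 groups each), 1 value lay far from the others by Dixon's ratio, which chance does in about 1 in 20 groups. Ifih1 was 6.12 in pristane week 4 replicate 1, with the next lowest at 7.84, and the other 7 treated mice of that week were above every untreated one. Dhx58 was 4.41 in pristane week 2 replicate 3, against 5.61 for the next mouse, and 3.15 in untreated week 2 replicate 1, against 3.903. The week 2 difference of Dhx58 was 2.03 without the treated array and 1.70 without the untreated one. Zbp1 was 7.92 in untreated week 4 replicate 1, against 6.80, and the week 4 difference was 1.64 without it. Sting1 was 6.56 in untreated week 14 replicate 8, against 6.99.

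The pristane effect on Mavs was larger at week 14 than at week 12 by 1.06 on the log2 scale (0.50 to 1.61, adjusted p = 0.0241 by limma), a difference called for 2.15% of all genes. This contrast was chosen after seeing the data, while the F test over all 5 weeks did not call Mavs (adjusted p = 0.111). The effect at week 14 was 0.91 and at week 12 -0.14, and the pristane-treated means of those weeks were 6.56 and 6.10 and the untreated means 5.64 and 6.24.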

How the results depend on the processing

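The counts of sensors called were recomputed under 104 alternatives, 88 of them leaving out 1 array each. Of 482 such counts, 473 stayed within 1.5 times the reported one. The exceptions were as follows. With the interquartile range as a covariate, 1 sensor was called between the untreated weeks (reported 3). Array quality weights gave 3 sensors between untreated weeks 14 and 12 (reported 0), and a fit with only the 2 groups compared gave 1 there and 1 between untreated weeks 12 and 2. With all 40 untreated arrays as control, 5 sensors were called at week 8 (reported 2). Asking for more than a 2-fold change as well left 1 sensor at week 14 and 1 against spontaneous disease. Leaving out 1 array at a time gave 1 to 3 sensors against spontaneous disease. The direction of Dhx58 turned in its dim probe sets, at -0.022 for week 4, -0.093 for week 14 and -0.22 against spontaneous disease in the second, and at -0.016 for week 8 in the third. Of the other differences, 34 of 1498 recomputed values turned sign without being called in either fit. For Mavs at week 14, the choice of control week ended the call (0.32 against untreated week 12). With a replicate block, the counts were 3, 3, 2, 3 and 4 at weeks 2, 4, 8, 12 and 14, as reported, and the block changed no other call count. The numbers were not shown to pair mice.

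Leaving out replicate 8 of every group, whose arrays had the narrowest distribution in 7 of 11 groups (chosen after seeing the data), ended the Dhx58 call at week 14 (0.74, adjusted p = 0.0693 by limma) and against spontaneous disease (0.84, adjusted p = 0.0632), and called Mavs there (0.62, adjusted p = 0.0401). Centring each array on the probe sets brightest over all arrays moved the median of all genes at week 14 to 0.23, against 0.12 as deposited. For dim probe sets, a difference may be understated.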
